A study of Mus musculus with 18 samples.

Results

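The 39 genes described here encode the liver's fatty acid oxidation machinery, a ketone body enzyme, and regulators and targets of the nuclear receptor PPARA. They were chosen by name, with earlier results of these data known, and found on the array through the transcript that each probe was designed for. All 39 had a probe, 50 probes in all, and each was well above background on all 18 arrays. They are 39 of the 17721 genes tested.

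Fatty acids that enter a hepatocyte are joined to coenzyme A, carried into mitochondria by the carnitine shuttle and shortened there by beta-oxidation, which feeds ketone body synthesis during fasting. Very long and dicarboxylic chains are shortened in peroxisomes by a separate set of enzymes. PPARA binds fatty acids, pairs with RXR on DNA repeats called DR1 elements and activates genes of both routes.

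RNA came from livers of female mice, 6 weeks old, with 3 samples in each of 6 groups. Nrf1 CKO livers were Nrf1(dN/-)::Alb-Cre, so Cre was driven by the promoter of albumin, a hepatocyte gene, and other liver cells can keep Nrf1. Their controls were Nrf1(dN/+), a genotype label without Alb-Cre, so those controls also carried a dN allele and the effect of Cre itself was not measured. Both of these groups were of mixed strain. Nrf2 KO livers were Nrf2(-/-) and their controls Nrf2(+/+), on C57BL/6. Keap1 KD livers were Keap1(Kd/-), of mixed strain, and their controls Keap1(Kd/+), so these controls also carried a Kd allele. Nrf1 (gene symbol Nfe2l1) and Nrf2 (Nfe2l2) are related CNC-type transcription factors, and Keap1 is the adaptor that marks Nrf2 for degradation. The labels do not say whether the 3 samples of a group came from separate animals. The p-values rest on the spread among samples within groups, pooled over the 6 groups, and that spread may be technical.

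A level here is the log2 of a probe's signal relative to the 75th percentile of its array, so 0 stands for that percentile, and a difference is mutant minus control of the same line in log2 units. A gene was called where limma's adjusted p, over all genes tested, was under 0.05. Between 49.95% and 65.04% of the spots were well above background on each array. Nfe2l1 measured 3.59 to 3.93 in Nrf1 Control livers and was not well above background on any of the 3 Nrf1 CKO arrays, at least 470.3-fold lower. Nfe2l2 measured 3.13 to 3.52 in Nrf2 Control and -5.90 to -3.16 in Nrf2 KO, where 1 of 3 arrays was above background. Keap1 measured 3.28 to 4.81 in Keap1 Control and 1.75 to 1.87 in Keap1 KD livers.

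In Nrf1 CKO livers 14 of the 39 members were called lower, where 11% of all genes tested were called lower, and 0 were called higher, where 7.96% of all genes were. At an unadjusted limma p under 0.05, 1 member, Vnn1, was higher. The members' median difference was -0.46, against -0.09 over all genes tested, and 33 of 39 members lay below 0. Of all genes tested, 42.5% lay above 0. For 26 members every Nrf1 CKO array lay below every control array, which was so for 28.3% of all genes. For 3 members, Crot, Pdk4 and Vnn1, every Nrf1 CKO array lay above every control array, and the share of all genes is not given here. The genes called lower encode 3 enzymes of the mitochondrial spiral, the acyl-CoA synthetase Acsl1, a peroxisomal thiolase, the peroxisome division protein Pex11a, 3 auxiliary enzymes for unsaturated chains, 4 thioesterases and the transcription factor Creb3l3.

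The size of this shift depended on how the arrays were scaled. In the Nrf1 line the difference of all genes fell with signal: the 9443 genes with a mean level under 0 had a median difference of 0.04, and the 679 genes with a mean level over 6 had one of -0.49. The members lay mostly at high signal, 14 of them over 6 and 12 between 4 and 6. Of the 14 over 6, 7 lay below the median of all genes in that range, and of the 12 between 4 and 6, 8 did. After quantile normalization, which gives every array the same distribution, the members' median difference was -0.06, with 20 below 0 and 19 above, and 3 members were called: Acot3, Decr2 and Pex11a. Under that scaling 1254 of the 17721 genes, or 7.08%, were called lower, so 3 of 39 is close to the share of all genes. Which scaling better follows the RNA amounts was not tested.

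Slide and group were also partly confounded. The 3 Nrf1 CKO arrays shared a slide with Nrf1 Control 3, and the other 2 controls were on another slide. Within the shared slide, 34 of 39 members lay below 0, with a median of -0.43 against -0.11 for all genes. With slide as a block 0 of 39 members were called, and 65 of all genes tested were called.

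**Figure D1:**
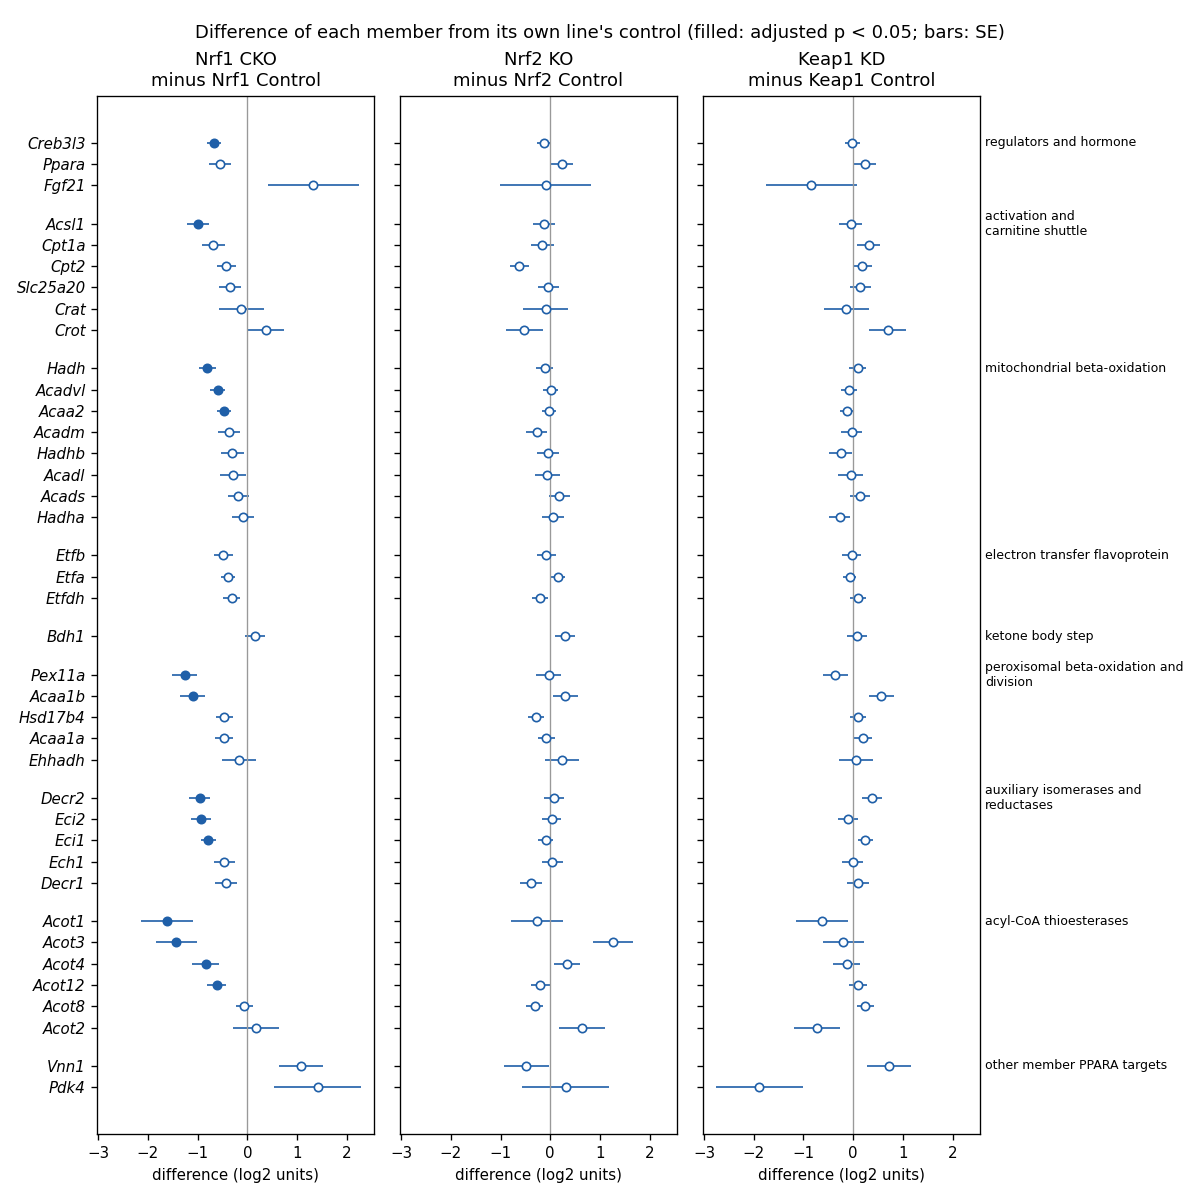
Difference of each of the 39 members from its own line's control (horizontal axis, log2 units; bars are the standard error from limma), with the members grouped by role. Filled points have an adjusted p under 0.05: 14 in the Nrf1 CKO panel, all to the left of 0, and 0 in the Nrf2 KO and Keap1 KD panels.

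**Figure D2:**
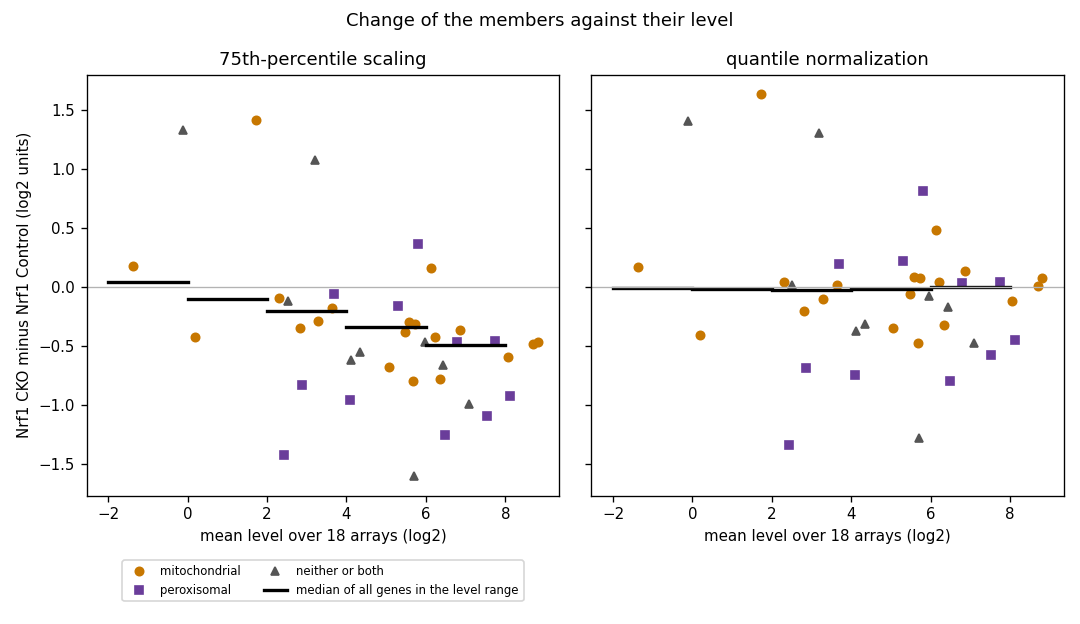
Nrf1 CKO minus Nrf1 Control of each member (log2 units) against its mean level over the 18 arrays, under 75th-percentile scaling (left) and quantile normalization (right). Black lines are the medians of all genes tested with a mean level under 0, 0 to 2, 2 to 4, 4 to 6 and over 6; they fall from 0.04 to -0.49 on the left and stay between -0.03 and 0.00 on the right.

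Among the regulators, Creb3l3, a liver transcription factor that acts with PPARA on fasting genes, measured 6.94, 6.92 and 6.97 in Nrf1 Control and 6.44, 6.13 and 6.26 in Nrf1 CKO. Its difference was -0.67 (SE 0.14, adjusted p = 0.00721), and the groups did not overlap. After quantile normalization the difference was -0.17. Ppara, the receptor itself, measured 4.39, 4.24 and 4.12 in the controls and 3.86, 3.80 and 3.43 in Nrf1 CKO. All 3 mutant arrays were below the controls, but the difference of -0.55 (SE 0.22) had an adjusted p of 0.0866 and was not called. Fgf21, the hormone that PPARA induces in the fasted liver, measured -1.25, -0.67 and 1.69 in the controls and 0.60, 0.98 and 2.19 in Nrf1 CKO. The groups overlapped through Nrf1 Control 3, and the adjusted p of the 1.33 difference was 0.322. A weaker probe of Fgf21 gave 0.50. Within the slide that the Nrf1 CKO arrays shared with Nrf1 Control 3 the difference was -0.43, so its sign turned.

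For fatty acid activation, Acsl1, the main long-chain acyl-CoA synthetase of liver, measured 7.44, 7.37 and 7.44 in Nrf1 Control and 6.80, 6.17 and 6.29 in Nrf1 CKO. This was a difference of -0.995 (SE 0.23, adjusted p = 0.00912), or 1.99-fold lower, with no overlap. Cpt1a, the outer membrane carnitine palmitoyltransferase that controls entry into mitochondria, measured 5.50, 5.76 and 5.26 in the controls and 5.04, 4.58 and 4.86 in Nrf1 CKO. Its mutant arrays all lay below the controls, and its -0.68 (SE 0.23) missed the threshold with an adjusted p of 0.0523. Cpt2, the inner membrane partner of Cpt1a, measured 6.53, 6.45 and 6.36 against 5.93, 5.95 and 6.19 in Nrf1 CKO. Its difference was -0.42 (adjusted p = 0.132), and 0.04 after quantile normalization. Of the other shuttle genes, the carnitine-acylcarnitine carrier Slc25a20 differed by -0.35, Crat by -0.12 and the peroxisomal octanoyltransferase Crot by 0.37, and none of these 3 was called. Crot lay between 5.27 and 5.38 in the controls and between 5.58 and 5.84 in Nrf1 CKO, without overlap. The fit takes its spread from all 6 groups, and Crot measured 4.33 in Keap1 Control 1.

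In the mitochondrial spiral 3 of 8 genes were called, all lower, where 11% of all genes were called lower. The median over the 8 was -0.33, or 0.03 after quantile normalization. Hadh, the dehydrogenase for short and medium hydroxyacyl chains, measured 5.74, 5.50 and 5.57 in Nrf1 Control and 4.98, 4.76 and 4.66 in Nrf1 CKO. The groups stood clearly apart, at -0.80 (SE 0.17, adjusted p = 0.00658), and quantile normalization gave -0.48. Acadvl, the very long-chain acyl-CoA dehydrogenase, measured 8.34, 8.33 and 8.08 in the controls and 7.80, 7.56 and 7.60 in Nrf1 CKO. It differed by -0.60 (SE 0.15, adjusted p = 0.0160), and by -0.12 after quantile normalization. Acaa2, the mitochondrial thiolase, measured 8.74, 8.71 and 8.72 in the controls against 8.48, 8.16 and 8.13 in Nrf1 CKO. Its difference of -0.47 (SE 0.14, adjusted p = 0.0367) became 0.07 after quantile normalization, so its direction rests on the scaling.

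The 5 genes of the spiral that were not called had smaller differences. Acadm, the medium-chain acyl-CoA dehydrogenase, measured 7.18, 6.93 and 7.22 in Nrf1 Control and 6.78, 6.53 and 6.91 in Nrf1 CKO, a difference of -0.37 (adjusted p = 0.235) with the mutant arrays just below the controls. Hadha, the alpha subunit of the trifunctional protein, measured 2.14, 2.07 and 1.99 in the controls and 1.96, 1.90 and 2.07 in Nrf1 CKO. These overlapped, with a difference of -0.09 (SE 0.22). Hadhb, Acadl and Acads differed by -0.30, -0.29 and -0.18. The electron transfer flavoprotein, which takes electrons from the acyl-CoA dehydrogenases, had differences of -0.39 for Etfa (adjusted p = 0.0617), -0.49 for Etfb (adjusted p = 0.0819) and -0.32 for its oxidoreductase Etfdh. In each of these 3 genes every Nrf1 CKO array lay below every control, and none was called. After quantile normalization the differences were -0.06 for Etfa, 0.0099 for Etfb and 0.07 for Etfdh, so the direction of the last 2 rests on the scaling.

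Bdh1, which interconverts the 2 ketone bodies acetoacetate and beta-hydroxybutyrate, measured 4.87, 4.68 and 4.76 in Nrf1 Control and 5.05, 4.79 and 4.95 in Nrf1 CKO. The groups overlapped, at a difference of 0.16 (SE 0.20, adjusted p = 0.607).

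In the peroxisome, Pex11a, a membrane protein that promotes peroxisome division and is a known PPARA target, measured 6.92, 6.86 and 7.16 in Nrf1 Control and 5.98, 5.35 and 5.84 in Nrf1 CKO. It differed by -1.26 (SE 0.25, adjusted p = 0.00479), 2.39-fold lower, and kept its call after quantile normalization at -0.80. Acaa1b, a peroxisomal thiolase, measured 7.67, 8.06 and 7.80 in the controls and 7.14, 6.41 and 6.69 in Nrf1 CKO. The 2 groups did not overlap, with a difference of -1.10 (SE 0.25, adjusted p = 0.00930). After quantile normalization the difference was -0.58 (adjusted p = 0.144) and was not called. Acaa1a, its close paralog on the same chromosome, measured 7.93, 7.98 and 7.68 against 7.47, 7.39 and 7.33 in Nrf1 CKO, a difference of -0.46 (adjusted p = 0.0806). Other probes of Acaa1a gave -0.52 and -0.73, and quantile normalization gave 0.04. The probe sequences were not used here, so signal shared between the paralogs cannot be told apart.

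Both multifunctional enzymes of the peroxisome were uncalled. Hsd17b4, the D-bifunctional protein, measured 6.91, 6.84 and 6.83 in Nrf1 Control and 6.52, 6.28 and 6.39 in Nrf1 CKO. Its groups did not overlap, but the difference of -0.46 (SE 0.17) had an adjusted p of 0.0649 and was 0.03 after quantile normalization. Ehhadh, the L-bifunctional protein and a widely used PPARA target, measured 5.24, 5.13 and 5.58 in the controls and 5.06, 4.66 and 5.75 in Nrf1 CKO. The groups overlapped, and the difference was -0.16 (SE 0.34, adjusted p = 0.782).

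The auxiliary enzymes reshape double bonds so that unsaturated chains can enter beta-oxidation. Of these, 3 of 5 were called lower, where 11% of all genes were. Decr2, the peroxisomal dienoyl-CoA reductase, measured 4.24, 4.28 and 4.03 in Nrf1 Control and 3.63, 2.89 and 3.15 in Nrf1 CKO. Its difference was -0.96 (SE 0.21, adjusted p = 0.00700), and it kept its call after quantile normalization at -0.75. Eci2, an enoyl-CoA isomerase of peroxisomes, measured 8.19, 8.38 and 8.41 in the controls and 7.89, 7.05 and 7.26 in Nrf1 CKO. The mutant arrays were all lower, by a mean of -0.93 (SE 0.19, adjusted p = 0.00637). Eci1, its mitochondrial counterpart, measured 6.38, 6.39 and 6.31 in the controls and 5.68, 5.48 and 5.58 in Nrf1 CKO, with little spread in either group. It differed by -0.78 (SE 0.15, adjusted p = 0.00367). Ech1 (-0.46) and the mitochondrial reductase Decr1 (-0.43) were not called. All 5 differences stayed below 0 after quantile normalization, with a median of -0.41, where 1 of 5 was called.

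Acyl-CoA thioesterases split acyl-CoA back into free fatty acid and coenzyme A. Of this role 4 of 6 members were called lower in Nrf1 CKO, where 11% of all genes were. Acot2, Acot1, Acot4 and Acot3 are consecutive protein-coding genes of a cluster on chromosome 12 in RefSeq. The stretches of 120 bases just before the RefSeq start of these neighbours and of Acot12 are shown because 4 of these 5 genes fell. They are from RefSeq, build GRCm38.p6, all on the plus strand and 5′ to 3′. Capitals mark a match to AGGTCANAGGTCA (a DR1 element, up to 2 mismatches in the letters other than N) in Acot4 and Acot12, and a match to TGACNNNGC (the core of the antioxidant response element that Nrf1 and Nrf2 bind) in Acot3. Both motifs were searched on both strands, and all 3 capital stretches are on the strand opposite to the gene.
Acot2, chr12:83987741-83987860: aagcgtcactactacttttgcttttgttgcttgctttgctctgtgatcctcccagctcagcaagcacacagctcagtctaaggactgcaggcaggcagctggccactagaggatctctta
Acot1, chr12:84009382-84009501: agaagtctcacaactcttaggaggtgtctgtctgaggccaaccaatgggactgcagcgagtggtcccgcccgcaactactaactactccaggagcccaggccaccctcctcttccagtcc
Acot4, chr12:84038259-84038378: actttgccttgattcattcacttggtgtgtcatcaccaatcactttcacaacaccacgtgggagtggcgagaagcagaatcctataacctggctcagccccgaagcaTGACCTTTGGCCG
Acot3, chr12:84052024-84052143: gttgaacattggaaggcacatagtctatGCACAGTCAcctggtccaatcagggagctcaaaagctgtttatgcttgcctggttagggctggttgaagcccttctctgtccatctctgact
Acot12, chr13:91741401-91741520: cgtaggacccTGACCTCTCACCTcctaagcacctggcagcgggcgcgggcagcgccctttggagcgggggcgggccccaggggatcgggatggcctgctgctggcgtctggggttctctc

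The searched window ran from 250 bases before to 50 after each start and was given for 34 of the 39 members. These 34 have 38 windows, and members are counted as genes while the percentages are of windows. AGGTCANAGGTCA with up to 2 mismatches was found in 5 of the 34 (Acot12, Acot4, Creb3l3, Etfa and Slc25a20) and in 3.86% of all 32851 windows. With no mismatch allowed it was found in 0 members and in 0.0396% of all windows. TGACNNNGC was found in 2 members, Acot3 and Ehhadh, and in 12.4% of all windows. A match of letters is a description and no evidence of binding, and elements farther from the start were not searched.

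Acot1, the cytosolic thioesterase at the top of this group by size, measured 6.05, 5.75 and 6.82 in Nrf1 Control and 5.28, 3.64 and 4.87 in Nrf1 CKO. It differed by -1.61 (SE 0.52, adjusted p = 0.0427), 3.05-fold lower, with a wide spread and no overlap. Quantile normalization gave -1.28 (adjusted p = 0.0937), and the call held in 1 of the 6 fits that left out an array. Acot3, a peroxisomal thioesterase, measured 2.50, 1.90 and 2.59 in the controls and 1.22, 0.34 and 1.15 in Nrf1 CKO. It was 2.69-fold lower, at -1.43 (SE 0.41, adjusted p = 0.0265). Acot3 was still called after quantile normalization at -1.34 (adjusted p = 0.0456), but in only 2 of the 6 fits that left out an array. Acot4, also peroxisomal, measured 3.22, 2.79 and 3.59 in the controls and 2.60, 2.13 and 2.37 in Nrf1 CKO. Its difference was -0.84 (SE 0.27, adjusted p = 0.0414), and the lowest control lay only a little above the highest mutant array. Quantile normalization gave -0.69 (adjusted p = 0.0905), which was not called.

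Acot12, a cytosolic acetyl-CoA thioesterase, measured 4.40, 4.47 and 4.07 in Nrf1 Control and 3.99, 3.35 and 3.74 in Nrf1 CKO, a difference of -0.62 (SE 0.19, adjusted p = 0.0334). Its groups were separated by a small gap. The peroxisomal Acot8 differed by -0.06. Acot2, the mitochondrial neighbour of Acot1, measured -1.46, -1.52 and -0.17 in the controls and -1.33, -1.35 and 0.06 in Nrf1 CKO, a difference of 0.18 (SE 0.46, adjusted p = 0.820) with overlapping groups. Within the slide shared with Nrf1 Control 3 it was -0.70, a value that rests on this control alone, the highest of the 3. The thioesterases of the cluster are close paralogs, so shared signal between their probes cannot be told apart here. Acot5 was not well above background on 3 arrays of any group.

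**Figure D3:**
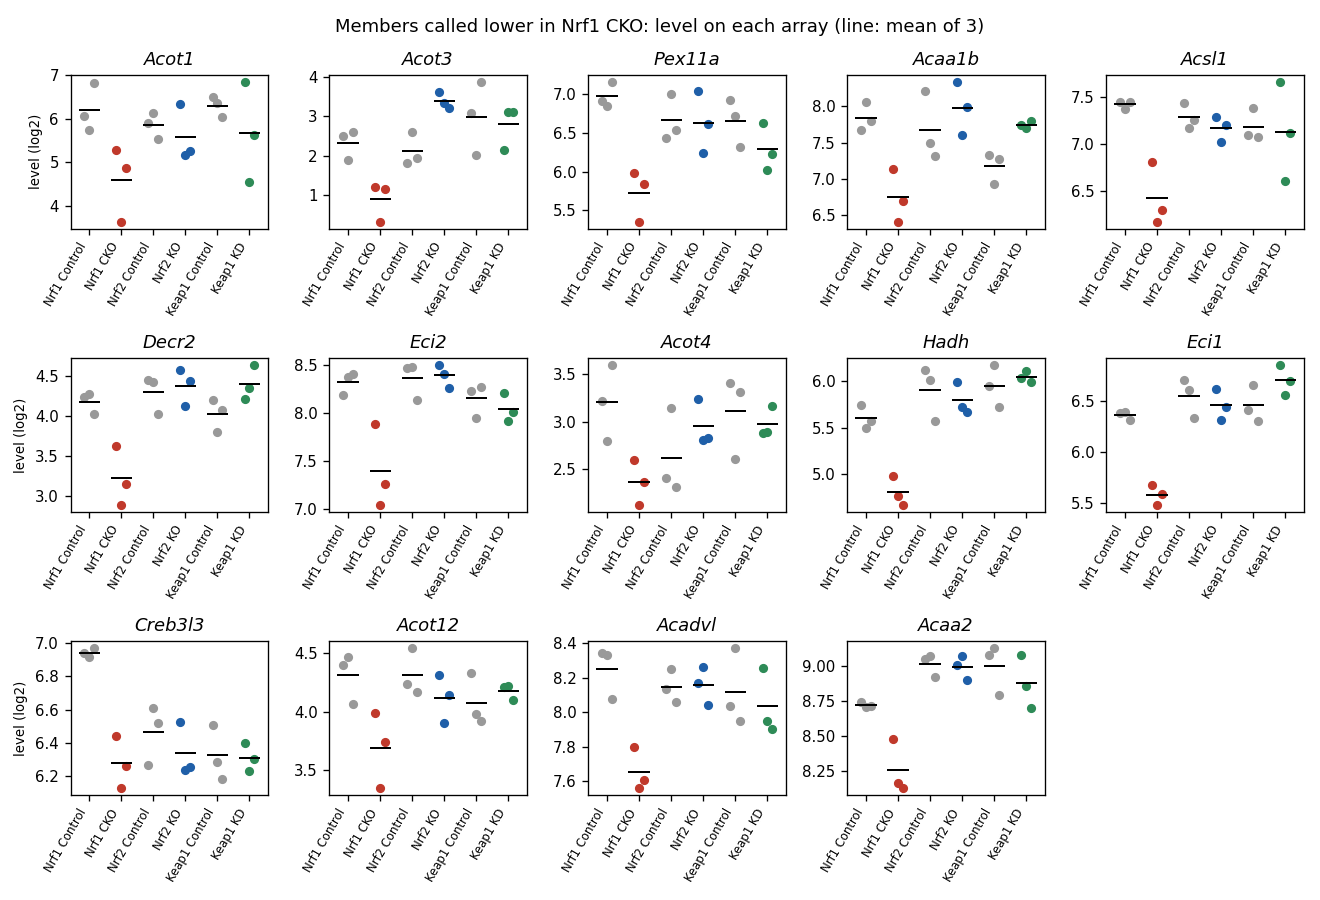
Level on each array (log2, relative to the array's 75th percentile) of the 14 members called lower in Nrf1 CKO, in all 6 groups, in order of the size of the difference from Acot1 (-1.61) to Acaa2 (-0.47). Points are arrays and lines are group means; axes differ between panels and do not start at 0. In all 14 panels the 3 Nrf1 CKO arrays lie below the 3 Nrf1 Control arrays.

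The 2 remaining PPARA targets had the opposite sign and were not called. Pdk4, the kinase that shuts off pyruvate dehydrogenase when fat is burned, measured 1.17, 1.52 and 2.87 in Nrf1 Control and 2.88, 2.99 and 3.94 in Nrf1 CKO. The highest control array and the lowest mutant array differed by almost nothing, and the difference of 1.42 (SE 0.88) had an adjusted p of 0.267. Vnn1, a pantetheinase, lay between 1.90 and 2.73 in the controls and between 3.12 and 3.77 in Nrf1 CKO, a difference of 1.08 (SE 0.45, adjusted p = 0.0992).

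**Figure D4:**
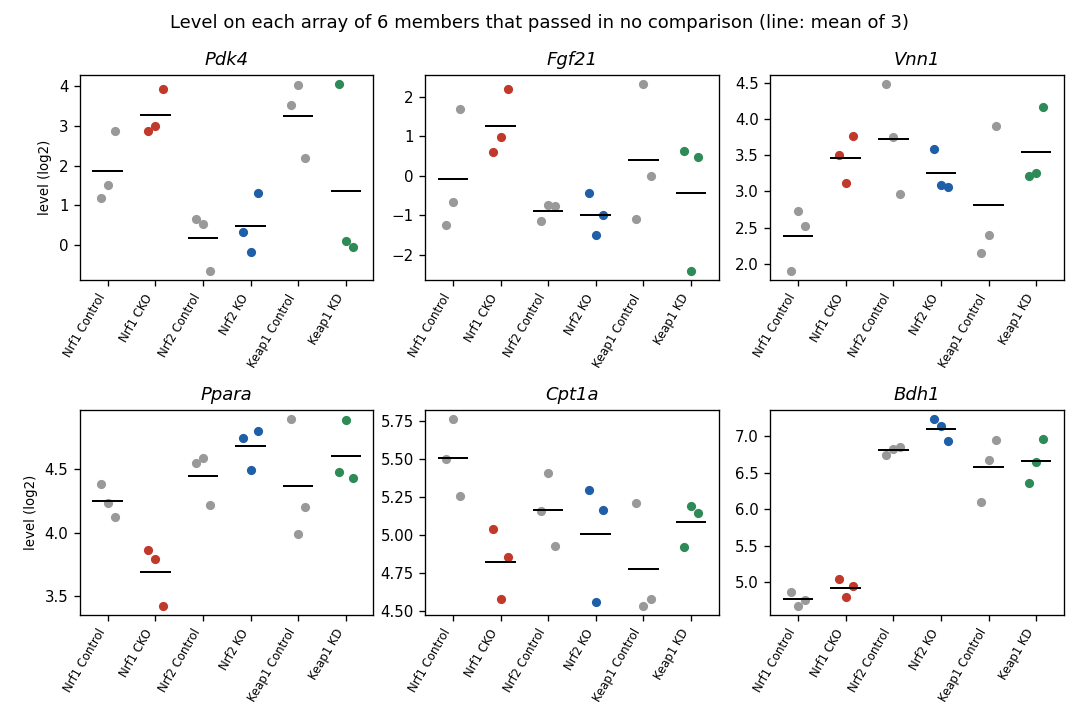
Level on each array (log2, relative to the array's 75th percentile) of Pdk4, Fgf21, Vnn1, Ppara, Cpt1a and Bdh1, none of which passed the test in any comparison. Points are arrays and lines are group means; axes differ between panels and do not start at 0. Fgf21 spans -2.41 to 2.31 over the 18 arrays, and Bdh1 lies between 4.68 and 5.05 on the 6 arrays of the Nrf1 line.

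By place in the cell, 6 of 11 peroxisomal members and 4 of 19 mitochondrial members were called lower in Nrf1 CKO. So were 4 of 9 that act at neither or both sites, and 11% of all genes tested. The median difference was -0.84 for the peroxisomal members, -0.37 for the mitochondrial members and -0.55 for the rest. After quantile normalization these medians were -0.45, 0.02 and -0.17. The calls were then 3 of 11 peroxisomal (Acot3, Decr2 and Pex11a), 0 of 19 mitochondrial and 0 of 9 other members. Taken over all 39 members, 3 is near the share of all genes called lower under that scaling (7.08%). The difference between the sites was not tested, since genes of a list are not replicates. Among the peroxisomal members the differences ran from -1.43 for Acot3 to 0.37 for Crot, so the site did not move as a block.

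Genes of the same and related pathways that are not members were read from fixed lists, and not all of them act in fatty acid oxidation. The shares of all genes tested were 11% called lower and 7.96% called higher, or 7.08% and 8.68% after quantile normalization. Of 22 other mitochondrial oxidation genes tested, 12 were lower and 1 higher in Nrf1 CKO, with a median of -0.58. The lower ones included the carnitine importer Slc22a5 (-1.37, adjusted p = 0.00951), Acsm3 (-1.22), malonyl-CoA decarboxylase Mlycd (-1.08, adjusted p = 0.00139) and Acadsb (-1.04), and the thioesterase Acot9 was higher (1.06). Quantile normalization left 6 lower and 1 higher in this list. Of 8 ketone body genes, 2 were lower and 1 higher, among them Bdh2 at -1.26 and Oxct1, an enzyme of ketone use, at 0.63. Bdh2 and Oxct1 kept their calls and signs after quantile normalization, while the list's median went from -0.08 to 0.32.

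Of 18 other peroxisomal oxidation genes, 6 were lower and 0 higher, where 11% and 7.96% of all genes were. The lower ones included the very long-chain acyl-CoA synthetase Slc27a2 (-1.29, adjusted p = 0.00267), the reductase Pecr (-1.13), the transporter Abcd3 (-0.83) and Scp2 (-0.58). After quantile normalization 3 were lower and 1 higher, with a median of -0.03 against -0.24 before. Of 15 peroxisome assembly genes 4 were lower, among them Pex26 (-0.83), Pex13 (-0.61) and Pex7 (-0.59), and quantile normalization left 2. Of 20 other PPARA targets 2 were lower, near the 11% of all genes called lower. They were the epoxide hydrolase Ephx2 (-0.92) and the monoglyceride lipase Mgll (-0.74), and quantile normalization left 0.

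Among 17 partners and co-regulators of PPARA, 6 were lower and 1 was higher in Nrf1 CKO, where 11% and 7.96% of all genes were. Lpin1, a phosphatidate phosphatase that also acts as a PPARA coactivator, differed by -2.32 (SE 0.56, adjusted p = 0.0125). The coactivator Ppargc1b differed by -1.48, the deacetylases Sirt3 and Sirt1 by -0.86 and -0.76, and the corepressor Ncor1 by -0.68. Pparg, the receptor that promotes fat storage, was higher by 1.27 (adjusted p = 0.0127). Quantile normalization left 4 lower and 1 higher.

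Markers of cell types moved in the same comparison, where 11% of all genes were called lower and 7.96% higher. Of 8 hepatocyte markers tested 4 were lower in Nrf1 CKO, Hpd (-1.45), Tat (-1.33), Arg1 (-0.83) and Fah (-0.79), and their summed signal ran from 2188 to 2626 times the array's 75th percentile in the controls and from 1308 to 1959 in Nrf1 CKO. After quantile normalization 1 of the 8 was called lower, 5 were below 0 and 3, Ttr (0.46), Apoa1 (0.08) and Alb (0.06), above 0, and the list's median was -0.21 against -0.64. Of 8 stellate cell markers 7 were higher, with a summed signal of 78.0 to 103 in the controls and 119 to 166 in Nrf1 CKO. Of 7 macrophage markers 3 were higher, with a summed signal of 95.3 to 182 in the controls and 185 to 398 in Nrf1 CKO. Of 6 sinusoidal endothelium markers 1 was lower, the hyaluronan receptor Lyve1 (-2.42, adjusted p = 0.000177). Of 3 erythroid markers tested limma called 0, and 0 had an unadjusted p under 0.05, while their summed signal was 290.3 to 322 in the controls and 148 to 165 in Nrf1 CKO. Of 5 cholangiocyte markers limma called 0, with 1 at an unadjusted p under 0.05, and of 5 lymphocyte markers 1 was higher, Cd8a (1.15). In samples of whole liver, fewer cells of a type and less RNA per cell cannot be told apart, and the part of these markers in the members' result was not tested. All 5 markers of striated muscle, and Adipoq, Plin1, Lep and Ucp1 of adipocytes, were not well above background on 3 arrays of any group, while Cidea, also on the adipocyte list, was higher in Nrf1 CKO by 3.04 (adjusted p = 0.0162).

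In Nrf2 KO livers limma called 0 of 39 members, where 0.0621% of all genes tested, 11 genes, were called. At an unadjusted p under 0.05 there were 2 members, Cpt2 and Acot3, and 1574 of all genes. The members' median difference was -0.06 against 0.01 over all genes, with 24 below 0 and 15 above. Cpt2 measured 6.53, 6.47 and 6.35 in Nrf2 Control and 5.74, 5.66 and 6.09 in Nrf2 KO, a difference of -0.62 (adjusted p = 0.339) without overlap. Acot3 measured 1.83, 2.60 and 1.96 in the controls and 3.62, 3.34 and 3.22 in Nrf2 KO, a difference of 1.26 (SE 0.41, adjusted p = 0.363), also without overlap. The direction of Acot3 was thus opposite to that in Nrf1 CKO.

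No regulator or rate-controlling step among the members was called in Nrf2 KO. Ppara measured 4.54, 4.59 and 4.21 in Nrf2 Control and 4.75, 4.49 and 4.80 in Nrf2 KO, and Cpt1a measured 5.16, 5.41 and 4.93 against 5.29, 4.56 and 5.17. Both overlapped, at differences of 0.23 and -0.16. Ehhadh measured 5.74, 4.71 and 4.53 in the controls and 5.30, 5.03 and 5.37 in Nrf2 KO, Pdk4 measured 0.65, 0.53 and -0.65 against 0.31, -0.17 and 1.31, and Fgf21 measured -1.15, -0.75 and -0.77 against -0.45, -1.50 and -0.9996. No group of these 3 genes stood apart. Bdh1 measured 6.75, 6.83 and 6.85 in Nrf2 Control and 7.24, 7.14 and 6.93 in Nrf2 KO, higher on all 3 arrays by a mean of 0.29 (adjusted p = 0.726). Hsd17b4 measured 7.22, 6.99 and 6.78 in the controls and 6.89, 6.59 and 6.66 in Nrf2 KO, a difference of -0.29. Acadm measured 7.20, 6.62 and 6.42 against 6.59, 6.29 and 6.55, a difference of -0.27. The mitochondrial and the peroxisomal enzyme thus both overlapped between the groups. Hadha measured 2.37, 2.52 and 2.49 in the controls and 2.65, 2.73 and 2.16 in Nrf2 KO. Acot1 measured 5.90, 6.12 and 5.53 against 6.35, 5.17 and 5.25, and Creb3l3 measured 6.27, 6.61 and 6.52 against 6.53, 6.24 and 6.26. These 3 also overlapped, at differences of 0.05, -0.26 and -0.13. Of the 100 genes in the pathway lists that are not members, limma called 0 in Nrf2 KO, and 10 had an unadjusted p under 0.05.

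No slide and no scan date held both Nrf2 groups, so values within a batch cannot be had, and a blocked estimate rests on the Keap1 arrays. With slide as a block Crot was called lower (-2.66, adjusted p = 0.0479), as it was when blocked by scan date (-2.59, adjusted p = 0.0173), against -0.53 without a block. That estimate leans on Crot in Keap1 Control 1, which measured 4.33, while the other Keap1 arrays measured 6.17 to 6.37.

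In Keap1 KD livers limma called 0 of 39 members, where 5.55% of all genes tested were called. At an unadjusted p under 0.05 there were 2 members, Acaa1b and Pdk4, and 2979 of all genes. The members' median difference was -0.01, with 20 below 0 and 19 above. Acaa1b measured 7.33, 6.93 and 7.27 in Keap1 Control and 7.74, 7.70 and 7.80 in Keap1 KD, higher on all 3 arrays by a mean of 0.57 (SE 0.25, adjusted p = 0.255). Pdk4 measured 3.53, 4.04 and 2.20 in the controls and 4.05, 0.10 and -0.05 in Keap1 KD. Keap1 KD 1 lay at the level of the highest control and the other 2 mutant arrays lay below every control, so the difference of -1.89 (SE 0.88, adjusted p = 0.289) became -3.23 (adjusted p = 0.0158) without Keap1 KD 1.

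Ppara measured 4.89, 3.99 and 4.21 in Keap1 Control and 4.48, 4.88 and 4.43 in Keap1 KD, and Cpt1a measured 5.21, 4.54 and 4.58 against 4.92, 5.19 and 5.15. Neither pair of groups stood apart, at differences of 0.24 and 0.31. Ehhadh measured 5.04, 5.43 and 6.05 in the controls and 5.69, 5.17 and 5.86 in Keap1 KD, and Fgf21 measured -1.10, 2.31 and -0.01 against 0.63, -2.41 and 0.46. Fgf21 had the largest spread of the members within groups, an SD of 1.25. Bdh1 measured 6.10, 6.68 and 6.95 in the controls and 6.36, 6.64 and 6.97 in Keap1 KD, a difference of 0.08.

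Of the mitochondrial enzymes, Cpt2 measured 6.27, 6.47 and 5.85 in Keap1 Control and 6.73, 6.06 and 6.36 in Keap1 KD. Acadm measured 6.69, 7.43 and 7.03 against 7.11, 6.91 and 7.05, and Hadha measured 2.14, 3.07 and 2.41 against 2.46, 1.94 and 2.40. Their differences of 0.18, -0.03 and -0.27 came with overlapping groups. Hsd17b4 measured 6.93, 6.99 and 6.56 in the controls and 7.10, 6.64 and 7.03 in Keap1 KD. Creb3l3 measured 6.51, 6.29 and 6.18 against 6.40, 6.23 and 6.31, and Acot1 measured 6.50, 6.35 and 6.03 against 6.84, 4.54 and 5.63. The groups of these 3 genes overlapped too, at differences of 0.10, -0.02 and -0.62. Of the 100 pathway genes that are not members limma called 2, where 5.55% of all genes were called. Both were higher: Acox2, the oxidase for branched chains and bile acid precursors (1.08, adjusted p = 0.0375), and Lonp2, the peroxisomal protease (0.87, adjusted p = 0.00738). After quantile normalization they differed by 0.95 (adjusted p = 0.100) and 0.82 (adjusted p = 0.0608), and neither was called. The 15 peroxisome assembly genes had 14 differences above 0, a median of 0.20 and 0 calls by limma, with 3 at an unadjusted p under 0.05. After quantile normalization 12 were above 0, with a median of 0.09. Of all genes, 50.3% were above 0 before and 52.1% after quantile normalization.

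The 2 Keap1 groups shared 1 slide and 1 scan date. Within the slide that held 1 array of each group the members' median was 0.09 against -0.04 for all genes, and within the scan date that held 1 Keap1 KD and 2 control arrays it was 0.05 against -0.04.

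The effects in the 3 lines were compared with each other directly. Within a test the compared effects share no arrays, but each pair of tests shares the arrays of a line. The Nrf1 CKO effect was lower than the Nrf2 KO effect for 3 members, where 2.58% of all genes were called lower: Acot3 by -2.69 (SE 0.58, adjusted p = 0.0179), Acaa1b by -1.40 (SE 0.35, adjusted p = 0.0338) and Decr2 by -1.04 (SE 0.29, adjusted p = 0.0496). It was lower than the Keap1 KD effect for 4 members, where 3.42% of all genes were called lower: Acaa1b by -1.67 (adjusted p = 0.0182), Decr2 by -1.34 (adjusted p = 0.0203), Eci1 by -1.02 (adjusted p = 0.0158) and Hadh by -0.90 (adjusted p = 0.0386). No member was called higher in either test, where 3.02% and 3.54% of all genes were. Acaa1b and Decr2, both peroxisomal, were in both sets, and both tests use the same Nrf1 arrays. For the other 9 members called in Nrf1 CKO, and for Ppara and Cpt1a, a difference between the lines was not called. The Nrf2 KO and Keap1 KD effects differed for 0 of 39 members by limma, where 3.08% of all genes were called, with 4 members at an unadjusted p under 0.05.

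The Nrf2 KO and Nrf2 Control arrays shared no slide and no scan date, so in the first test batch and the Nrf2 KO effect cannot be told apart. Quantile normalization left 1 member in the first test and 0 in the second, and slide as a block left 0 in both. With scan date as a block 0 members were lower and 1 higher in the first test, and 0 were called in the second. Leaving out single arrays gave 0 to 8 in the first and 1 to 8 in the second.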

How the data were processed

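A set of 18 liver samples in 6 groups of 3 were measured on single-colour Agilent mouse arrays, per the labels. The arrays were read with Agilent Feature Extraction 10.7.3.1, per the file headers. The deposited processed signal is an intensity that the authors' software had background-subtracted and detrended but not normalized between arrays, per the file headers. The median spot and background intensities are deposited raw pixel values, and the program also wrote the flags for background, saturation and outliers, per the file headers. Values of the authors' series table equalled the processed signal at all 810324 entries compared. The genome build in the headers differs from the GRCm38.p6 build of the RefSeq tables that supplied gene names and promoter sequences.

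From these, log2 processed signals of a probe's spots were averaged after leaving out control and outlier spots, and log2 of the array's 75th percentile was subtracted. A probe was tested if any group had it well above background on its 3 arrays (23554 probes), and each gene was read from its brightest probe (17721 genes). The 6 group means were estimated with limma 3.58.1 (R 4.3.3) from the 18 arrays together, which left 12 residual degrees of freedom, with Benjamini-Hochberg adjustment over all genes. The precision is limited by 3 arrays a group; the median standard error of an effect was 0.24. The code was tested on simulated data.

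The members and gene lists were chosen with earlier results of these data known. The rule for names was to account for every member, to give each array's values for up to 14 members called in a comparison and always for Ppara, Cpt1a, Cpt2, Acadm, Hadha, Ehhadh, Hsd17b4, Bdh1, Fgf21, Pdk4, Acot1 and Creb3l3, and to name up to 5 called genes of each other list by size. Per-array values of Acot2, Acot3, Acaa1a and Acaa1b outside their calls, the values of Crot in the Keap1 line, Acot5 and the markers at background were added after their values were seen. Alternatives changed the scaling, background correction, filter, probe rule, outlier spots, variance model, array weights, blocks and arrays used. Some called genes of these lists are not reported here by name.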

Additional observations from a re-analysis of the deposited data

Results flagged for a closer look

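The 7 results below were taken up because the effect of a mutation on a member differed between mouse lines in a test of the difference itself. The Nrf1 CKO effect lay below the Nrf2 KO effect by -2.69 for Acot3, -1.40 for Acaa1b and -1.04 for Decr2. It lay below the Keap1 KD effect by -1.67 for Acaa1b, -1.34 for Decr2, -1.02 for Eci1 and -0.90 for Hadh. For Acot3 the Nrf2 KO arrays were all above their controls and the Nrf1 CKO arrays all below theirs. For Acaa1b and Decr2 the Keap1 KD arrays were all above their controls, though neither was called in that line. The Nrf2 KO and Nrf2 Control arrays shared no slide and no scan date, so for Acot3, Acaa1b and Decr2 against the Nrf2 KO effect, batch and that effect cannot be told apart.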

How the results depend on the processing

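The count of 14 members called lower in Nrf1 CKO was 3 after quantile normalization and 3 after normexp with quantile, 9 with no filter on background, 26 with array weights (23 lower and 3 higher) and 0 with slide as a block. With the arrays of the Nrf1 line alone 11 members were called, 10 lower and 1 higher, and 10 of the 14 kept their call. Leaving out 1 array gave 6 to 16, with 8 without Nrf1 Control 1, 6 without Nrf1 CKO 2 and 7 without Nrf1 CKO 3. Of the 14 members, 6 (Hadh, Decr2, Eci1, Eci2, Pex11a and Creb3l3) were called in all 6 of these fits. The call held in 5 of them for Acaa1b and in 4 for Acsl1. It held in 2 for Acadvl, Acot3, Acot4 and Acot12 and in 1 for Acaa2 and Acot1. Acaa2 reversed, to 0.072 after quantile normalization and 0.0396 after normexp with quantile. The Nrf2 KO count of 0 became 1 with slide as a block and 1 when blocked by scan date, and 0 in each fit without 1 array. The Keap1 KD count of 0 became 1 without Keap1 KD 1, and leaving out arrays gave 0 to 1. For the Nrf1 CKO against the Nrf2 KO effect, the count of 3 was 1 after quantile normalization, array-median scaling, normexp with quantile or no filter, 6 with genes above background on all arrays, with an intensity trend or with the compared lines alone, 18 with array weights, 0 with slide as a block, and 1, now higher, with scan date as a block. Leaving out 1 array gave 0 to 8. Against the Keap1 KD effect, the count of 4 was 0 after quantile normalization, normexp with quantile, slide as a block or scan date as a block, 8 with array-median scaling, 2 with no filter or the compared lines alone, 11 with array weights, and 1 to 8 without 1 array. For the Nrf2 KO against the Keap1 KD effect, the count of 0 was 1 with slide or scan date as a block and 0 to 1 without 1 array. The causes were not tested.

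Among all genes called in Nrf1 CKO, 1410 were higher and 1954 lower, against 1539 and 1254 after quantile normalization. In Keap1 KD 171 were higher and 813 lower, against 350 and 352 with array-median scaling, which moved the median of all genes to 0.31. Same-numbered samples did not deviate together in every pair, nor did every sample correlate best with its own number: the same-number correlations were 0.13, 0.12 and -0.02 in the Nrf1 line, -0.08, -0.05 and 0.05 in the Nrf2 line and 0.10, -0.36 and 0.15 in the Keap1 line. With the replicate number as a block, 16 members were called in Nrf1 CKO, 0 in Nrf2 KO and 0 in Keap1 KD, and 5, 4 and 0 in the 3 tests between lines. With 3 arrays a group, small differences were not detectable, and signal over background limited no member.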

Other observations

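Some members differed more between the mouse lines than between mutant and control. Bdh1 measured 4.68 to 5.05 on the 6 arrays of the Nrf1 line, mutant and control, and 6.10 to 7.24 on the 12 arrays of the other lines. Acads, the short-chain acyl-CoA dehydrogenase, measured 2.70 to 3.18 on the Nrf1-line arrays and 3.42 to 4.28 on the others. These are levels of different lines, strains and scan dates, which cannot be told apart, and no test was made.

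The members that varied most within groups were Fgf21, Pdk4 and Acot1. Their within-group SDs were 1.25, 1.19 and 0.70, against a median of 0.26 over the 39 members and 0.31 over all genes tested. In the Nrf1 line, control 3 was the highest of its group for Pdk4 (2.87), Fgf21 (1.69), Acot2 (-0.17), Crat (2.91) and Acot1 (6.82), and Nrf1 CKO 3 was the highest of its group for Pdk4 (3.94), Fgf21 (2.19), Acot2 (0.06), Crat (2.36) and Ehhadh (5.75).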
